A study of Mus musculus with 15 samples.

Results

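UCP1-positive beige adipocytes from the inguinal fat of mice given rosiglitazone (RG) were set against UCP1-positive brown adipocytes from the brown fat of untreated mice (BAT), on 3 arrays each of the 15 analysed. The comparison takes in every probe set of the array, 25206 in all, of which 23185 carry 1 gene symbol. The RG arrays have the replicate numbers 2, 3 and 4, and the BAT arrays 1, 3 and 4. The cells were sorted by flow cytometry from UCP1/Tomato mice aged 8 to 10 weeks, kept at 21 °C on standard chow with 12 h of light, and 2 ng of total RNA per sample was amplified for the array. The labels name the sorting marker UCP1(GFP), so which reporter set the gate is not settled. Other groups of the series give context: white adipocytes without UCP1, sorted from the inguinal depot of mice that received no drug (WAT, 4 arrays), and UCP1-positive inguinal adipocytes after CL316243, an adrenergic agonist (CL, 3 arrays), or roscovitine, a kinase inhibitor (RS, 2 arrays). Drug dose, duration of treatment, sex and whether each array came from a different animal are not given in the labels. The p-values therefore measure only the spread between these samples, which may be technical. That spread is pooled within groups over all 15 arrays, so the spread of the other groups enters it too. Depot and drug differ together between RG and BAT, because no UCP1-positive inguinal cells without a drug and no brown cells with rosiglitazone were measured here, and their effects cannot be told apart.

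Brown adipocytes burn fatty acids to make heat. UCP1 in the inner mitochondrial membrane lets protons leak back into the matrix, so that the respiratory chain runs without making ATP, and adrenergic signalling through cAMP turns the programme on. Beige adipocytes are UCP1-bearing cells that appear inside white depots, and rosiglitazone, an agonist of the nuclear receptor PPARG, is a known inducer of them. PPARG itself drives the genes of every fat cell, brown or white, including those of lipid storage and of adipokine secretion.

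The comparison addresses how far rosiglitazone-induced inguinal cells carried the expression pattern of brown cells when both had passed a UCP1 gate. All levels below are deposited log2 values, so that 1 unit is a 2-fold difference, and a gene is called higher or lower in RG where limma, fitted to all 15 arrays and all probe sets, gave a Benjamini-Hochberg adjusted p under 0.05. In all 3596 probe sets were called (14.3% of those tested), 1474 higher in RG (5.85%) and 2122 lower in RG (8.42%). A difference of at least 2-fold was called for 471 probe sets higher in RG (1.87%) and 493 lower (1.96%). The 3 RG arrays did not overlap the 3 BAT arrays for 34.7% of probe sets. The share of calls that were higher in RG was 41.0%, and it was 59.3% after each array was centred on its median. Direction also went with brightness. Among the 6037 probe sets with a mean level of at least 5, 13.2% were higher and 2.93% lower in RG, and among the 19169 dimmer ones 3.54% were higher and 10.1% lower. The RG arrays had the wider range of values at both ends. Their 10th percentile lay between 1.81 and 1.87, against 2.11 to 2.15 on the BAT arrays. Their 75th percentile lay between 4.94 and 5.03, against 4.76 to 4.85. The standard deviation over probe sets was 1.83 to 1.85 in RG and 1.65 to 1.72 in BAT. The part of this in the lower calls on dim genes and the higher calls on bright genes was not tested. Below, a group mean under the median of its arrays (3.37 in RG and 3.45 in BAT) is said to lie near the floor of the arrays. Pairs of arrays correlated across probe sets at 0.971 to 0.982 within RG, 0.955 to 0.966 within BAT and 0.936 to 0.954 between the groups.

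Both groups had the transcripts of fat cells at high levels. Fabp4, a fatty acid carrier of adipocytes, stood at 11.69, 11.96 and 11.89 in RG and at 12.00, 11.87 and 12.07 in BAT. Adipoq, which encodes adiponectin, was at 10.54, 10.57 and 11.04 in RG and at 9.75, 9.72 and 10.08 in BAT, with an adjusted p of 0.231. Its arrays did not overlap, and its standard deviation was 0.28 in RG, 0.20 in BAT and 1.22 in WAT, whose spread also enters the fit. Ucp1, the gene behind the gate, was far above the white adipocytes in both groups, since WAT arrays lay between 3.20 and 4.47. Zic1, a transcription factor used as a marker of classical brown fat, was near the floor in RG and in BAT, at 2.57, 2.38 and 2.44 against 3.91, 3.12 and 2.82. It was lower in RG by 0.82 (adjusted p = 0.0269), a call that was lost without RG 2, RG 3, RG 4 or BAT 1, with adjusted p up to 0.0912 without BAT 1.

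The named genes with the largest differences were 12 in each direction, past the threshold and without overlap between the 3 RG and 3 BAT arrays. Most of those lower in RG were enzymes and carriers of fatty acid and energy metabolism. Slc27a2, a fatty acid transport protein that also activates very long chains, was at 3.20, 2.96 and 4.43 in RG and at 7.35, 7.44 and 6.89 in BAT, 13-fold lower in RG (log2 difference −3.70, SE 0.36, adjusted p = 8.5e-05). Elovl3, the fatty acid elongase of brown fat, was at 5.06, 5.02 and 6.17 against 9.47, 9.42 and 8.43, 12.9-fold lower (adjusted p = 0.00013). Acot11, a thioesterase that releases fatty acids from coenzyme A, was at 3.93, 3.85 and 4.59 against 7.47, 7.85 and 7.21, 10.5-fold lower (adjusted p = 2.78e-06). In all of these RG 4 was the RG array nearest to BAT. Acsl5, a long-chain acyl-CoA synthetase, had the smallest p of the 24, with 5.01, 4.95 and 5.21 in RG against 8.65, 8.48 and 8.07 in BAT (10.1-fold lower, adjusted p = 2.16e-07). Kng2, a kininogen, was 10.3-fold lower, from 6.18, 5.93 and 5.54 in BAT to levels near the floor in RG (2.79, 2.00 and 2.77).

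Further down the same list, Phospho1, a phosphatase of phosphocholine and phosphoethanolamine, was 6.38-fold lower in RG, with 4.87, 5.45 and 5.43 against 8.11, 7.91 and 7.75 (adjusted p = 4.06e-05). Ppp1r3b, which brings protein phosphatase 1 to glycogen, was 5.27-fold lower, with 4.71, 3.80 and 5.10 against 7.26, 7.12 and 6.42 (adjusted p = 0.000685). The remaining genes were Ucp1 and Cox7a1, described with the thermogenic genes, Serpina1b of the antitrypsin family (9.51-fold lower, near the floor in RG), the fructose transporter gene Slc2a5 (5.79-fold lower) and the sortilin-type receptor gene Sorcs2 (4.68-fold lower, near the floor in RG). Serpina1b has near-identical copies, so its reading is uncertain, and its call was lost without RG 3 (adjusted p = 0.0762) or BAT 1 (0.0698). The call of Slc2a5 was lost when any 1 of the 6 arrays was left out, with adjusted p up to 0.127 without RG 3.

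**Figure D1:**
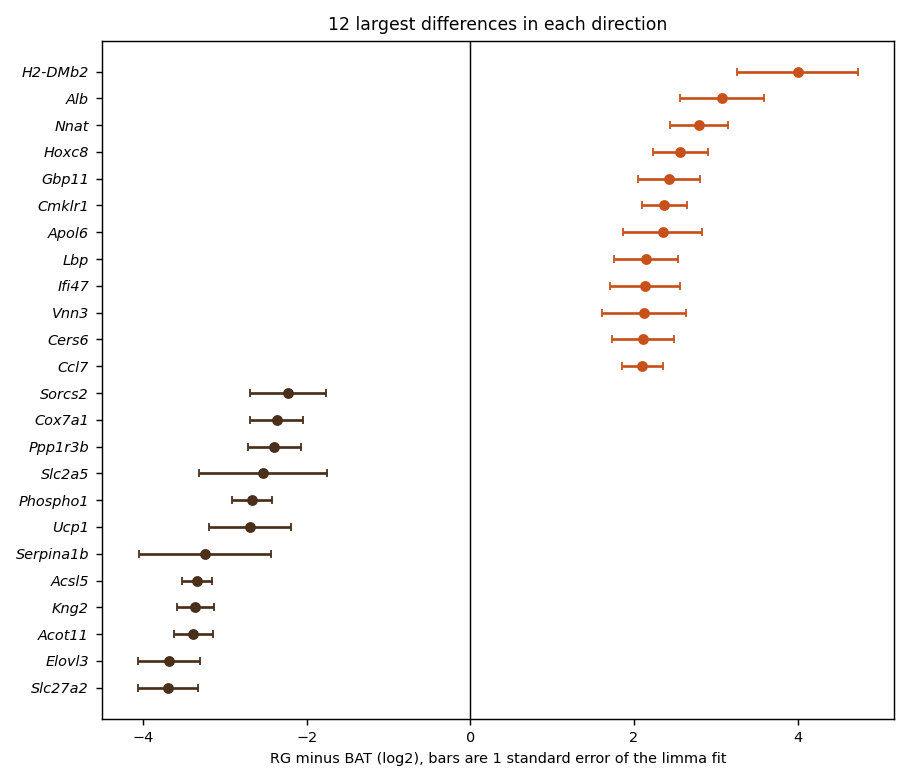
Difference RG minus BAT on the log2 scale (horizontal axis) for the 24 named genes, with bars of 1 standard error of the limma fit. The differences run from −3.70 for Slc27a2 to 4.00 for H2-DMb2, and the bars of H2-DMb2, Serpina1b and Slc2a5 are the widest.

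Among the 12 genes higher in RG were immune genes, secreted proteins and regulators. H2-DMb2, which encodes a chain of the factor that loads peptides onto MHC class II, was at 7.19, 8.14 and 7.22 in RG and at 3.47, 2.03 and 5.05 in BAT, 16-fold higher (SE 0.74 log2 units, adjusted p = 0.00433). The BAT arrays spread widely here, and the gene has a close copy, H2-DMb1. Alb, the albumin gene, was 8.42-fold higher, at 6.30, 6.08 and 6.91 against 3.47, 3.19 and 3.41, the latter near the floor (adjusted p = 0.00235). Nnat, an imprinted gene for a small membrane protein of the endoplasmic reticulum, was 6.93-fold higher, with a tight 7.46, 7.48 and 7.40 in RG against 4.26, 4.67 and 5.03 in BAT (adjusted p = 0.000435). Cmklr1, the chemerin receptor, was at 7.54, 7.08 and 7.01 against 4.23, 5.35 and 4.94, 5.17-fold higher (adjusted p = 0.000335). Cers6, a ceramide synthase, was at 6.31, 6.33 and 5.46 against 4.50, 3.54 and 3.73, 4.32-fold higher (adjusted p = 0.00354). The others were Hoxc8 (5.92-fold), Gbp11 (5.36-fold, near the floor in BAT), Apol6 (5.10-fold), Lbp (4.43-fold), Ifi47 (4.40-fold), Vnn3 (4.36-fold) and Ccl7 (4.30-fold). Of these 12, Vnn3, a vanin pantetheinase, lost its call without RG 2 (adjusted p = 0.0531) or RG 4 (0.0505).

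Most thermogenic genes measured were lower in RG than in BAT. Of 24 measured, 15 were lower and none was higher, so that 62.5% were called where 8.42% of all probe sets were lower, and the median difference was −1.17 against −0.07 over all probe sets. By the mean level over the list, RG arrays lay between 5.30 and 5.89, CL arrays between 6.28 and 6.58 and BAT arrays between 6.61 and 7.13. White adipocytes lay between 3.86 and 4.44. The 2 RS arrays, at 5.40 and 5.44, lay within the range of RG, so the level was not particular to RG. Without RG 2, and likewise without RG 3, 8 of the 24 were called lower. Less RNA of a gene per cell and fewer cells that make it cannot be told apart in these bulk samples.

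Ucp1 was at 7.69, 7.96 and 8.88 in RG and at 11.18, 11.22 and 10.22 in BAT, a 6.48-fold lower level (log2 difference −2.70, SE 0.50, adjusted p = 0.00414). The groups did not overlap, though RG 4 was the highest RG array and BAT 4 the lowest BAT array. The same arrays came closest in Cox7a1, a subunit of cytochrome c oxidase found in contractile and brown fat cells, with 7.53, 7.34 and 8.07 against 10.26, 10.48 and 9.31 (5.17-fold lower, adjusted p = 0.0008). Pank1, which catalyses the first step of coenzyme A synthesis, was at 5.60, 5.45 and 6.10 against 7.86, 8.12 and 7.73 (4.55-fold lower, adjusted p = 0.000312). Cidea, a lipid droplet protein and a standard brown marker, was at 8.38, 8.37 and 9.38 against 10.57, 10.63 and 10.41 (3.55-fold lower, adjusted p = 0.0146). Its call was lost without RG 2 (adjusted p = 0.058) or RG 3 (0.0582).

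Dio2, the deiodinase that activates thyroid hormone inside brown adipocytes, lay near the floor in RG and overlapped between the groups, at 3.29, 2.58 and 4.20 against 5.19, 4.73 and 3.84, and was called lower by 1.23 (adjusted p = 0.0369). That call was lost without RG 2, RG 3, BAT 1 or BAT 3, with adjusted p up to 0.153 without RG 3. Plin5, the perilipin that ties droplets to mitochondria, was lower by 0.89 (adjusted p = 0.0262), a call lost without RG 2, RG 3 or BAT 4, with adjusted p up to 0.105 without RG 2. Not every member was called. Prdm16, the coregulator that specifies brown fate, was at 5.10, 4.94 and 5.53 in RG and at 5.15, 5.33 and 5.62 in BAT (adjusted p = 0.588). Ppargc1a, the coactivator of mitochondrial biogenesis, was at 5.58, 5.41 and 6.20 against 6.62, 6.44 and 5.92 (adjusted p = 0.228). Cox8b, another subunit of cytochrome c oxidase, was at 9.70, 9.59 and 10.18 against 10.71, 11.05 and 10.42 (adjusted p = 0.0938).

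**Figure D2:**
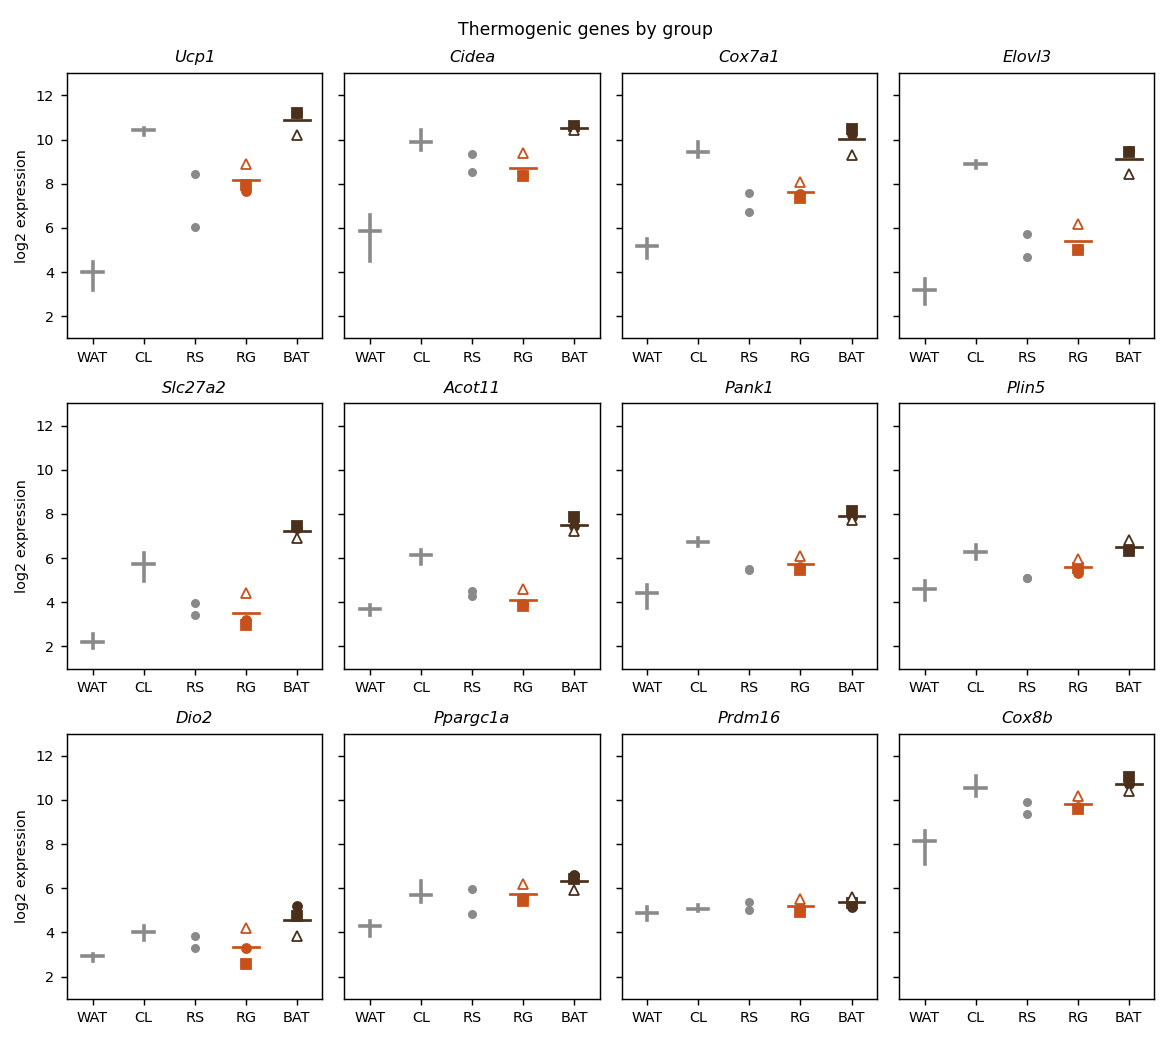
Log2 expression (vertical axis) of 12 thermogenic genes by group. Points are single arrays of RG, BAT and RS (circle, square and open triangle are replicates 2, 3 and 4 in RG and 1, 3 and 4 in BAT), short lines are group means, and for WAT and CL a vertical bar spans the arrays. RG lies below BAT without overlap in Ucp1, Cidea, Cox7a1, Elovl3, Slc27a2, Acot11, Pank1, Plin5 and Cox8b, while the groups overlap in Dio2, Ppargc1a and Prdm16.

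The stretches just upstream of the start sites are shown for 4 of these genes and for Nnat, the gene with the smallest spread in RG among the 12 higher there, to set their letters beside the values. They are the 250 bases before the RefSeq start on GRCm38.p6, read 5′ to 3′ on the strand of the gene, with searched motifs in capitals. Ucp1 is at chr8:83290098-83290347 (plus strand), Slc27a2 at chr2:126552774-126553023 (plus), Dio2 at chr12:90739039-90739288 (minus), Cox7a1 at chr7:30183921-30184170 (plus), and Nnat, for a gene higher in RG, at chr2:157559828-157560077 (plus).
Ucp1: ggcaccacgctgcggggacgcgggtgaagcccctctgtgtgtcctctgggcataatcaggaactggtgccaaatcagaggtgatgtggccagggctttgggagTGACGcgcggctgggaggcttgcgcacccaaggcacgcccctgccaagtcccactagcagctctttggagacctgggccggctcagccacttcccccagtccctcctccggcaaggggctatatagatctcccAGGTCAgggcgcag
Slc27a2: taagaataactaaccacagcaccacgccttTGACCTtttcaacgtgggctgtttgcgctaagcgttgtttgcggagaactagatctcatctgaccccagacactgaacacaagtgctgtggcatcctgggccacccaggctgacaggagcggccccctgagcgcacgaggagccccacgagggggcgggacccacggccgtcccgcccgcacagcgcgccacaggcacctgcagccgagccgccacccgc
Dio2: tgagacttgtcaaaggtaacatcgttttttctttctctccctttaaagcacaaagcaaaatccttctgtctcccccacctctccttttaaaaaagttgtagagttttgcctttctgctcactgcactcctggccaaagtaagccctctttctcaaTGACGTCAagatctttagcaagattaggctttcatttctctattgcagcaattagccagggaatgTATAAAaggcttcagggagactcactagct
Cox7a1: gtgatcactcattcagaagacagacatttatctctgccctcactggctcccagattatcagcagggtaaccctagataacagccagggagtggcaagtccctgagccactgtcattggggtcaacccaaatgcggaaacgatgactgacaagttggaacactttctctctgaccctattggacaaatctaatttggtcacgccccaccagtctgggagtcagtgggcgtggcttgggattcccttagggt
Nnat: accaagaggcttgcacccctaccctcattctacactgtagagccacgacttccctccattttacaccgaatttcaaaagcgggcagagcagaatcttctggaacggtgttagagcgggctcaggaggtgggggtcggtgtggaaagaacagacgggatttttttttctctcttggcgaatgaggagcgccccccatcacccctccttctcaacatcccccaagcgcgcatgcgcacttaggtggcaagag

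On both strands the search covered AGGTCA (the core site of nuclear receptors), its direct repeat (AGGTCA, any 1 base, AGGTCA), to which PPARG and RXR bind together, TCAAGGTCA (the element of the oestrogen-related receptors), TGACGTCA and TGACG (the cAMP response element and its core, the latter contained in the former) and TATAAA (the TATA box). The Ucp1 window held 1 AGGTCA and 1 TGACG, that of Slc27a2 held 1 AGGTCA on the opposite strand, that of Dio2 held a full TGACGTCA and a TATAAA, and those of Cox7a1 and Nnat held none of these strings. Of the 15 thermogenic genes lower in RG, 12 had a window in the RefSeq table. Several had more than 1 start site, which gave 18 windows in all. AGGTCA was present in 4 of the 18 windows, where 14% of 32851 promoters hold it, TGACG in 3 (17.8% of promoters), TATAAA in 3 (12.4%), TGACGTCA in 1 (1.55%), and neither the direct repeat (0.0335%) nor TCAAGGTCA (0.387%) in any. A match describes the letters of the window only.

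Genes of fatty acid oxidation were called lower in RG at several steps. In mitochondrial fatty acid oxidation 5 of 22 measured genes were lower (22.7% against 8.42% of all probe sets) and none higher. Acaa2, the last enzyme of the β-oxidation spiral, was at 8.91, 8.78 and 9.34 in RG and at 10.56, 10.63 and 10.22 in BAT (2.75-fold lower, adjusted p = 0.000596). Slc25a20, which carries acylcarnitines into mitochondria, was at 7.72, 7.49 and 8.03 against 9.19, 9.18 and 8.91 (2.54-fold lower, adjusted p = 0.0019). Hadha and Acadvl, enzymes for long chains, were lower by 0.89 and 0.87. The count was 2 without RG 2, RG 3 or BAT 1 and 3 without BAT 3. In peroxisomal oxidation 4 of 18 genes were lower (22.2%) and 1 (5.56%, against 5.85% of all probe sets), Abcd2, a transporter of very long-chain acyl-CoA, was higher by 1.35 (adjusted p = 0.0415). Of the lower ones, Acox2, an oxidase of branched chains (near the floor in RG), and Acaa1b, a thiolase, were lower by 0.99 and 1.10. The count of lower genes was 1 without RG 2 or RG 3 and 2 without RG 4, BAT 1 or BAT 3, and the call of Abcd2 was lost when any 1 of the 6 arrays was left out. In triglyceride synthesis and glycerol use 1 of 15 genes was called (6.67% lower against 8.42%), the mitochondrial glycerol phosphate dehydrogenase gene Gpd2, lower by 1.38 (adjusted p = 0.00997).

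Single members of enzyme families stood out. These families were listed after their leading members had been seen, so their counts describe them only. Among 6 long-chain acyl-CoA synthetases, Acsl5 and Acsbg1 (near the floor in RG) were lower, whereas Acsl4 was at 5.26, 5.19 and 5.05 in RG and 4.47, 5.13 and 4.85 in BAT, and Acsl3, Acsl6 and Acsbg2 passed no threshold. Of 7 elongases Elovl3, Elovl5 (lower by 0.88) and Elovl4 (lower by 0.63, near the floor in RG) were called. Elovl6, which lengthens palmitate, was at 7.22, 6.44 and 6.96 against 8.28, 8.20 and 8.96 without passing the threshold (adjusted p = 0.0721). Only Elovl3 of the 3 was still called without RG 2, RG 3, BAT 1 or BAT 4. Of 6 fatty acid transport proteins only Slc27a2 was lower and Slc27a3 was higher by 0.60, from a level near the floor in BAT, a call lost without RG 3, RG 4, BAT 1 or BAT 4. Slc27a1, the abundant transporter of insulin-responsive tissue, stood at 9.18, 8.92 and 9.50 against 8.50, 8.60 and 8.70 (adjusted p = 0.328). In coenzyme A synthesis and acyl-CoA hydrolysis 4 of 18 were lower (22.2% against 8.42% of all probe sets), namely Acot11, Pank1, Acot1 (lower by 0.76) and Acot5 (lower by 0.70, near the floor in both groups), and the count was 2 without RG 3 or BAT 1.

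Genes of the lipid droplet were called in both directions. Of 18 droplet and lipolysis genes 6 were lower in RG (Cidea, Cideb, G0s2, Plin3, Plin5 and Plin2), 33.3% against 8.42% of all probe sets, and 1 was higher, 5.56% against 5.85%. Plin4, the exception and a perilipin of white adipocytes, was at 8.54, 8.60 and 8.95 in RG and 7.42, 7.77 and 7.37 in BAT (2.26-fold higher, adjusted p = 0.0243). G0s2, an inhibitor of the lipase ATGL, was at 6.88, 6.42 and 6.47 against 7.71, 7.53 and 7.45 (1.96-fold lower, adjusted p = 0.0174). The lipases Pnpla2 (difference 0.36), Lipe (0.33) and Mgll (−0.05) passed no threshold. The count of 6 was 2 without RG 2, 1 without RG 3, 3 without BAT 1 and 4 without RG 4, BAT 3 or BAT 4, and Plin4 kept its call only without BAT 3.

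Most genes of the respiratory chain and of the TCA cycle did not pass the threshold. The median difference was −0.45 over 33 genes of complex I, −0.49 over 13 of complexes II and III, −0.51 over 15 of cytochrome c oxidase and −0.39 over 21 of the TCA cycle. Called lower were 3, 2, 2 and 2 of these, and none was called higher. Complex I was represented by Ndufab1, Ndufa1 and Ndufs8 (lower by 1.02, 0.68 and 0.89), the TCA cycle by Suclg1 and Sdhd (1.00 and 0.77) and cytochrome c oxidase by Cox7a1 and Cox5a (2.37 and 0.70). As shares of each list these counts (9.09%, 15.4%, 13.3% and 9.52%) stand against 8.42% of all probe sets lower in RG. Beside that share alone they are no result about the lists. A mean level of at least 5 was reached by 30, 12, 8 and 21 of these genes. Among all probe sets that bright, 2.93% were lower in RG and the median difference was 0.23. The part of brightness in these medians and counts was not tested. In the mitochondrial ribosome 4 of 74 were lower (5.41%, below the 8.42% of all probe sets), with a median of −0.14. Leaving out an array gave 1 to 3 calls in complex I (fewest without RG 3), 0 to 2 in complexes II and III (0 without RG 2, RG 3, RG 4, BAT 1 or BAT 3), 0 to 2 in the TCA cycle (0 without RG 2, RG 3, BAT 1 or BAT 3), 1 in cytochrome c oxidase with any array other than BAT 4 left out, and 1 to 8 in the ribosome (1 without RG 2, RG 3, BAT 1 or BAT 3, 2 without RG 4 and 8 without BAT 4).

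Among genes near the respiratory chain, Coq8a, a kinase-like protein needed for coenzyme Q, stood out with 6.37, 6.01 and 6.96 in RG and 8.63, 8.62 and 8.61 in BAT (4.51-fold lower, adjusted p = 0.00325). Coq6, Coq3 and Coq10a were lower by 0.83, 0.91 and 0.73. Of 12 coenzyme Q genes, a list made after their values were seen, 4 were lower (33.3% against 8.42% of all probe sets). The other 8 passed no threshold. A mean level of at least 5, where 2.93% of probe sets were lower, was reached by 11 of the 12. The count of lower coenzyme Q genes was 1 without RG 2, RG 3, BAT 1 or BAT 3 and 2 without RG 4 or BAT 4. Of 19 genes of creatine and calcium cycling 4 were lower (21.1% against 8.42% of all probe sets) and none higher. Alpl, the alkaline phosphatase that takes part in creatine cycling, was at 3.80, 3.48 and 3.77 against 5.64, 5.81 and 6.07 (4.46-fold lower, adjusted p = 4.06e-05). Itpr2, a calcium release channel, was at 5.13, 5.38 and 5.79 against 6.74, 6.84 and 6.45 (2.37-fold lower, adjusted p = 0.00115). Sln, the sarcoplasmic calcium pump regulator, was lower by 0.62 but near the floor in both groups, and the fourth was Phospho1.

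Genes of glucose use were called mainly lower in RG. In glycolysis, of 17 measured, 5 were lower (29.4% against 8.42% of all probe sets): Ldhb, Pkm and the 3 phosphofructokinase genes. Ldhb, a lactate dehydrogenase subunit, was at 6.83, 6.72 and 7.14 in RG and 8.20, 8.15 and 7.95 in BAT (2.30-fold lower, adjusted p = 0.00154). Pfkl was at 6.17, 5.66 and 5.93 against 7.36, 7.13 and 7.42 (2.61-fold lower, adjusted p = 0.00895), and Pkm, pyruvate kinase, was 1.99-fold lower. The glucose transporter genes Slc2a1 (0.67) and Slc2a4 (−0.53) passed no threshold. Without RG 2, RG 3 or BAT 1 the count was 3. Of 15 glycogen genes Ppp1r3b and Ppp1r3d, which target a phosphatase to glycogen, were lower (13.3%), and the phosphorylase gene Pygb was higher by 0.76, a call lost when any 1 of the 6 arrays was left out. With any array other than BAT 3 left out, 1 glycogen gene was lower.

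Few general adipocyte genes were called. Of 24 mature adipocyte genes Lep and Plin4 were higher and Cebpb was lower in RG, which is 12.5% called against 14.3% of all probe sets. None was higher without RG 4 or BAT 4, while a fit of the 6 RG and BAT arrays alone called 5 higher and 1 lower. Pparg, the receptor that rosiglitazone binds, was at 8.23, 8.10 and 8.17 in RG and 7.73, 8.02 and 7.62 in BAT (difference 0.38, adjusted p = 0.168). Among 19 genes known to answer PPARG agonists, 5 were lower in RG (26.3% against 8.42% of all probe sets) and none was higher. The 5 were Ucp1, Cidea, Plin5, Plin2 and Acaa2, all of which also belong to the thermogenic, oxidation or droplet lists above. Among targets shared with white cells the differences were 0.85 for Angptl4, 0.89 for Cidec and 0.46 for Lpl, none past the threshold. Without RG 2 or RG 3 the count was 2, and it was 3 without BAT 4.

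Most genes listed as white-selective were higher in RG than in BAT. Of 15 measured, 9 were higher and none lower, 60.0% where 5.85% of all probe sets were higher, with a median difference of 0.93. A mean level of at least 5, where 13.2% of probe sets were higher, was reached by 8 of the 15. The rise was not particular to RG. The median of CL minus BAT was 0.47, and 1 member was called higher in RG than in CL. The list averaged 5.66 and 5.80 in RS, 5.44 to 5.62 in CL and 5.87 to 6.02 in RG. Nnat and Hoxc8 are given above. Nrip1, the corepressor that holds down oxidative genes in white fat, was at 7.66, 7.68 and 7.56 in RG and 6.38, 6.60 and 6.12 in BAT (2.41-fold higher, adjusted p = 0.00154). Lep, the leptin gene, was at 8.05, 7.72 and 8.86 against 6.49, 6.54 and 5.68 (3.93-fold higher, adjusted p = 0.0164). Slc7a10, an amino acid transporter of the white adipocyte surface, was at 8.11, 7.77 and 8.66 against 7.12, 6.92 and 6.18 (2.71-fold higher, adjusted p = 0.0254). The arrays did not overlap in these 3. Retn, the resistin gene, was at 10.71, 10.66 and 11.28 against 10.09, 9.96 and 9.80 without passing the threshold (adjusted p = 0.181). The other called members were Hoxc10, Mest, Psat1 and Rb1. The count of higher members was 5 without RG 2, RG 4 or BAT 4 and 6 without RG 3 or BAT 1. Lep lost its call without RG 4 (adjusted p = 0.0671) or BAT 4 (0.061). Not all listed genes separated BAT from WAT here. In the same limma fit BAT minus WAT was −0.24 for Lep (adjusted p = 0.682) and 0.03 for Retn (0.963). It was −1.70 for Nnat (0.00111), −1.37 for Hoxc8 (0.00348) and −0.84 for Hoxc10 (0.000466).

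The white adipocytes themselves lay between 5.40 and 6.97 for Nnat and between 4.84 and 7.29 for Lep, below every RG array. One of them, WAT 4, was low in adipocyte transcripts, with a mean over mature adipocyte genes of 7.62 where the other WAT arrays had 8.80 to 9.28, and high in macrophage and stromal markers (8.34 and 8.41). Of the 12 measured genes proposed as beige-selective, only Hoxc8 was called (8.33% against 14.3% of all probe sets). Hoxc8 is also on the white-selective list, where it is 1 of the 9 called higher. Tmem26, a surface marker of beige precursors, was at 4.40, 3.64 and 3.54 in RG and 4.14, 4.35 and 3.60 in BAT (adjusted p = 0.824). Tbx1 was at 3.40, 3.22 and 3.84 against 3.45, 3.07 and 3.16 (adjusted p = 0.367), and Tnfrsf9 was at 3.58, 3.51 and 3.31 against 3.64, 3.86 and 4.07 (adjusted p = 0.234). P2rx5, a purinergic receptor gene of brown and beige cells, was at 6.10, 6.07 and 6.85 against 7.68, 7.82 and 7.47 and missed the threshold (adjusted p = 0.0514).

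Among positional genes single members differed. Hox genes keep a record of where along the body axis a cell arose, with high paralogue numbers marking posterior tissue. Of 38 measured, 3 were higher (7.89%) and 4 lower (10.5%) in RG, near the 5.85% and 8.42% of all probe sets, so the counts are no result about the family. Hoxc8 was at 7.03, 7.02 and 7.34 in RG and 4.97, 4.93 and 3.79 in BAT (5.92-fold higher, adjusted p = 0.000597). Hoxc10 was at 4.93, 4.97 and 5.07 against 4.19, 3.81 and 3.85 (2.06-fold higher, adjusted p = 0.00115). Hoxa5, by contrast, was at 2.62, 2.12 and 2.56, near the floor, against 3.98, 4.65 and 4.02 in BAT (3.44-fold lower, adjusted p = 0.00114). The calls on Hoxa10 (0.59), Hoxc12 (−0.75) and Hoxa2 (−0.68) lay near the floor in both groups, and that on Hoxb4 (−0.88) near the floor in RG. Hoxc9, often used as a white and beige marker, was near the floor in both groups, at 3.05, 3.03 and 3.09 against 3.38, 3.03 and 2.97. Leaving out an array gave 2 or 3 higher and 1 to 5 lower, with 1 lower without RG 3, 2 without RG 2, RG 4, BAT 1 or BAT 3, and 2 higher without RG 2, RG 3, RG 4 or BAT 1.

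**Figure D3:**
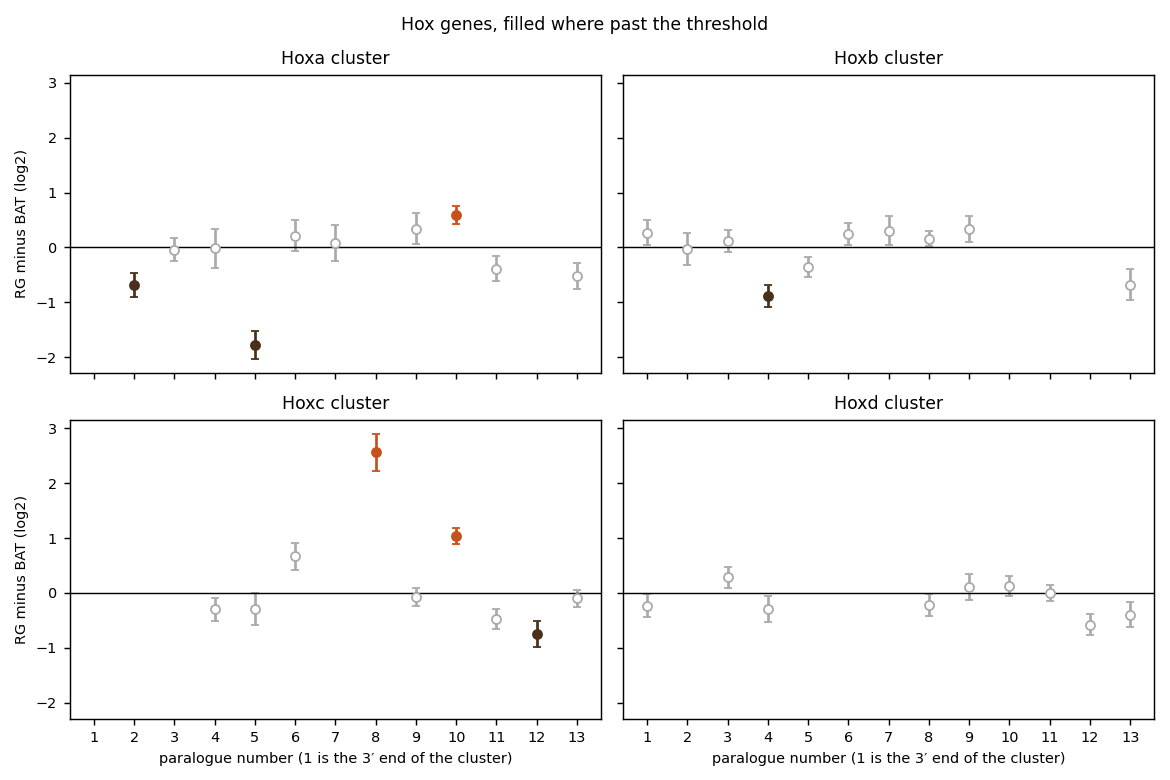
Difference RG minus BAT on the log2 scale (vertical axis, bars of 1 standard error) for 38 Hox genes, in 4 panels by cluster, against paralogue number. Filled points passed the threshold, the highest being Hoxc8 at 2.57 and the lowest Hoxa5 at −1.78, and open points did not.

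Outside the Hox clusters, Tbx15, a T-box factor of trunk mesenchyme and of subcutaneous fat, was at 5.46, 5.95 and 5.53 in RG and 4.50, 4.53 and 3.18 in BAT (2.98-fold higher, adjusted p = 0.00921). Of the other 16 lineage and position genes on the same list Zic1 and Eva1a were lower (11.8% of the list against 8.42% of all probe sets), both near the floor in both groups. Lhx8, a homeobox marker of interscapular fat, was at 4.53, 4.11 and 3.69 against 4.68, 4.45 and 4.09 (adjusted p = 0.521). Ebf2, which opens brown enhancers, was at 6.0, 6.50 and 6.65 against 6.25, 6.39 and 5.96 (adjusted p = 0.647). The call of Eva1a was lost without RG 2, RG 3, RG 4, BAT 3 or BAT 4, with adjusted p up to 0.0774 without RG 4.

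Transcription factors tied to the brown programme were called in both directions, with 10 of 36 higher (27.8% against 5.85% of all probe sets) and 6 lower in RG (16.7% against 8.42%). A mean level of at least 5, where 13.2% of probe sets were higher and 2.93% lower, was reached by 25 of the 36. Nrip1 and Tbx15, given above, were among the higher ones. Cebpd, an early adipogenic factor, was at 6.30, 6.77 and 5.88 in RG and 4.95, 4.66 and 4.63 in BAT (2.97-fold higher, adjusted p = 0.000685). Ppard, the PPAR of oxidative tissues, was at 6.60, 6.49 and 6.41 against 5.10, 5.58 and 5.41 (2.20-fold higher, adjusted p = 0.00325). Irf4, a regulator of lipolysis and thermogenesis, was at 6.19, 6.28 and 6.29 against 5.36, 4.96 and 5.09 (2.17-fold higher, adjusted p = 0.00891). Lower were Ppara, the fatty acid receptor of oxidative cells, at 4.88, 5.01 and 5.84 against 6.59, 7.13 and 6.27 (2.68-fold, adjusted p = 0.0153), Ppargc1b, a coactivator of mitochondrial genes (1.85-fold), and Cebpb (1.57-fold). Esrrb was also lower, near the floor in both groups. Ppara lost its call without RG 2 (adjusted p = 0.065), RG 3 (0.0589) or BAT 3 (0.052). The count of higher members was 6 without RG 3 or BAT 1, and that of lower members was 2 without RG 2 or RG 3, 3 without BAT 4 and 4 without RG 4 or BAT 3.

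Most interferon-inducible GTPases, which defend cells against intracellular microbes, were higher in RG. The family was listed after Gbp11 and Ifi47 had been seen among the largest differences, so its count describes it only. Of 15 measured, 9 were higher (60.0% against 5.85% of all probe sets) and none lower, with a median difference of 0.97. A mean level of at least 5, where 13.2% of probe sets were higher, was reached by 10 of the 15. Gbp2 was at 7.96, 7.56 and 7.59 in RG and 5.63, 5.84 and 6.17 in BAT (3.54-fold higher, adjusted p = 0.000374). Gbp11 was at 5.98, 5.72 and 5.75 against 3.48, 3.21 and 3.49, near the floor, and Ifi47 at 7.60, 7.61 and 7.03 against 4.65, 5.37 and 5.81. Iigp1 overlapped, at 9.41, 9.32 and 8.57 against 6.81, 7.03 and 8.62 (adjusted p = 0.016), since BAT 4 reached the RG level. Gbp4 (−0.14) and Gbp9 (−0.37) passed no threshold. Several Gbp genes are near-identical copies and cannot be fully separated by probes. Without RG 2, RG 3 or BAT 1 the count was 4, without BAT 3 it was 5 and without BAT 4 it was 10. On a wider list of 18 interferon-stimulated genes 1 was higher (5.56% against 5.85% of all probe sets), Zbp1 (by 1.07). None of the 18 was higher without RG 2, RG 3, BAT 1 or BAT 3, and 5 were without BAT 4.

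Some genes of antigen presentation and 2 chemokine genes were also higher in RG. Of 16 MHC genes 4 were higher (25% against 5.85% of all probe sets) and none lower: H2-DMb2, B2m and the immunoproteasome subunits Psmb8 and Psmb9. A mean level of at least 5, where 13.2% of probe sets were higher, was reached by 14 of the 16. The level of the MHC list was not particular to RG. Its median difference was 0.62 for CL minus BAT and 0.06 for RG minus CL, and none of the 16 was called between RG and CL. H2-DMb2 averaged 8.61 in CL, 7.41 in WAT and 7.52 in RG. Psmb8 was at 6.52, 6.57 and 6.57 in RG and 4.82, 5.67 and 5.49 in BAT (2.34-fold higher, adjusted p = 0.00173). B2m, the light chain of MHC class I, was at 11.38, 11.23 and 11.24 against 10.76, 10.75 and 10.84 (1.41-fold higher, adjusted p = 0.0284). Without RG 2, RG 4 or BAT 1 the count was 2. Of 19 CC chemokines, listed after Ccl7 was seen, 16 were not called, and the median difference was 0.03. Ccl7 and Ccl2, which attract monocytes, were higher and Ccl17 lower, the last near the floor in both groups and not called when any 1 array was left out. Ccl2 was at 7.95, 7.94 and 7.05 against 5.71, 6.10 and 5.98 (3.29-fold higher, adjusted p = 0.00115). Ccl7 was at 7.45, 7.69 and 6.80 against 4.99, 5.40 and 5.24 (adjusted p = 0.000336).

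**Figure D4:**
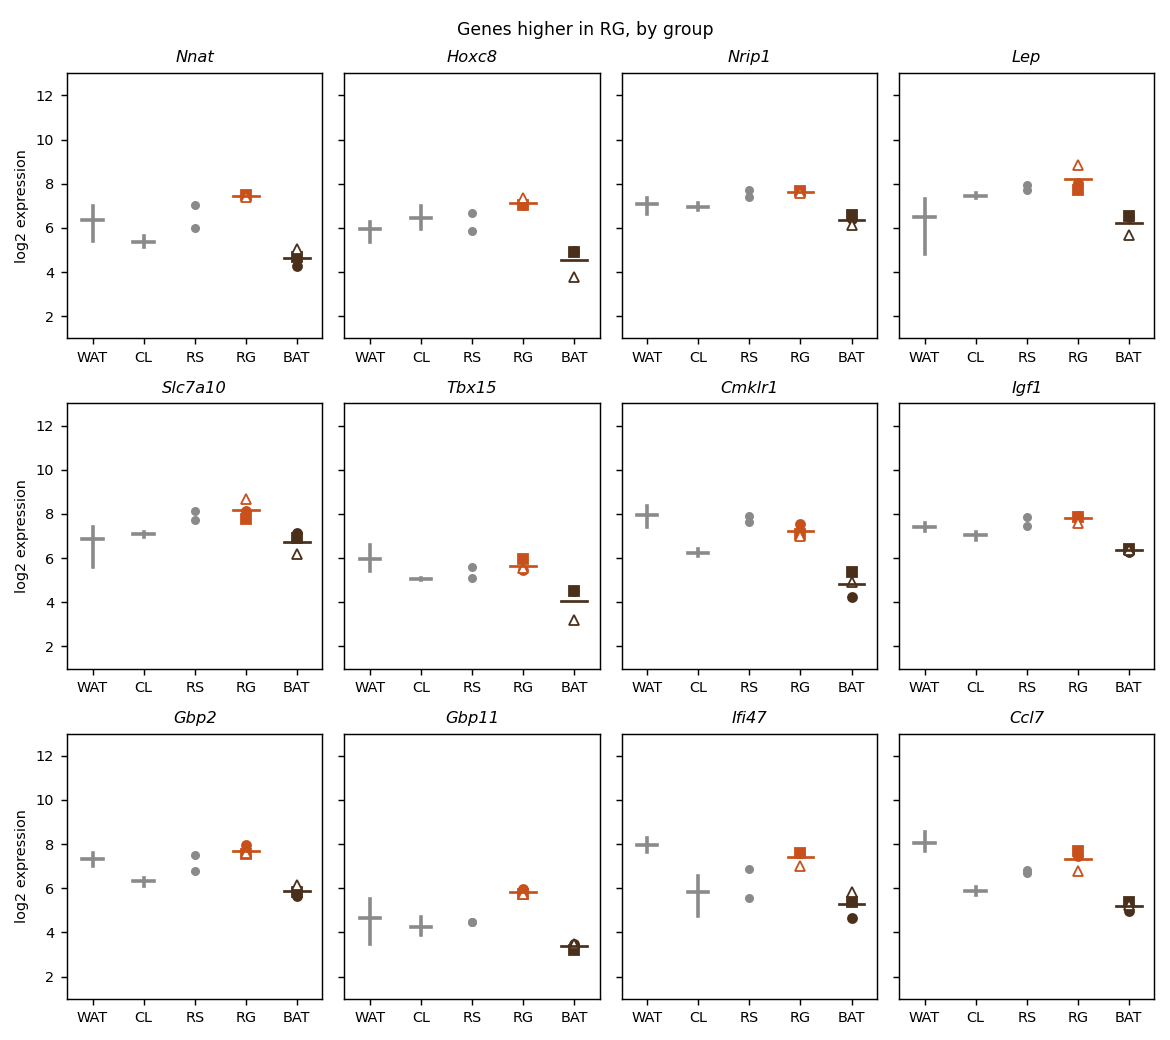
Log2 expression (vertical axis) of 12 genes higher in RG than in BAT, by group, drawn as in the plot of thermogenic genes. RG lies above BAT without overlap in each, and the WAT bar overlaps or passes the RG points in Tbx15, Cmklr1, Gbp2, Ifi47 and Ccl7 and lies below them in the other 7 genes.

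Secreted factors and hormone signalling also differed. Of 20 genes of insulin and IGF signalling 6 were higher in RG (30.0% against 5.85% of all probe sets) and 1 lower (5% against 8.42%). A mean level of at least 5, where 13.2% of probe sets were higher, was reached by 15 of the 20. Igf1, the growth factor itself, was at 7.92, 7.88 and 7.58 in RG and 6.29, 6.43 and 6.36 in BAT (2.70-fold higher, adjusted p = 0.000374). Igfbp4, which binds it, was at 8.02, 8.46 and 8.25 against 7.05, 7.12 and 6.59 (2.50-fold higher, adjusted p = 0.00115), while Igfbp3, another binding protein, was lower by 0.87 (adjusted p = 0.0275), a call lost without RG 2, RG 3 or BAT 4. Irs1, the insulin receptor substrate, was higher by 0.95 (adjusted p = 0.0414). The count of higher members was 3 without RG 2, RG 3, RG 4 or BAT 4, and 4 without BAT 1. Of 21 adipokines and secreted factors 4 were higher (19.0% against 5.85% of all probe sets), Igf1, Lbp, Pltp and Lep. Kng2 was lower (4.76% against 8.42%). A mean level of at least 5, where 13.2% of probe sets were higher, was reached by 13 of the 21. In a fit of the 6 RG and BAT arrays alone 7 were higher and 2 lower. Pltp, the phospholipid transfer protein, was at 8.72, 9.06 and 8.86 against 7.80, 7.74 and 7.94 (2.08-fold higher, adjusted p = 0.00567).

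Of the adenylyl cyclases, which make cAMP, Adcy3 was lower and Adcy5 higher in RG, and the other 4 cyclases on the list were not called. Adcy3 was at 6.34, 6.38 and 7.08 in RG and 8.72, 8.64 and 7.96 in BAT (3.58-fold lower, adjusted p = 0.00354). Adcy5 was at 7.74, 7.46 and 8.10 against 6.30, 5.91 and 5.96 (3.27-fold higher, adjusted p = 0.00336). Of 21 adrenergic and cAMP genes 4 were lower (19.0% against 8.42% of all probe sets) and 1 higher, Adcy5 (4.76% against 5.85%). The phosphodiesterase gene Pde4a was lower by 0.70 (adjusted p = 0.0446), Rgs2 by 0.71 (0.0483) and Adra2c by 0.59 (0.0318), the last near the floor in both groups. The count of lower members was 1 without RG 2 or BAT 1 and 2 without RG 3, RG 4 or BAT 3.

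Liver-type plasma proteins split between the groups, in a list made after Alb and Kng2 had been seen, with 5 of 27 higher (18.5%) and 3 lower (11.1%) in RG, against 5.85% and 8.42% of all probe sets. Saa3, an acute-phase protein made by fat, was at 5.78, 5.45 and 4.59 in RG and at 3.37, 3.19 and 3.17, near the floor, in BAT (4.08-fold higher, adjusted p = 0.00325). Apoe, the apolipoprotein of macrophages and adipocytes, was at 10.29, 10.23 and 10.29 against 9.50, 9.44 and 9.41 (1.77-fold higher, adjusted p = 0.00334). Lbp, which binds bacterial lipopolysaccharide, was at 5.74, 6.49 and 5.89 against 3.27, 3.93 and 4.48 (adjusted p = 0.00414), below the 7.11 to 8.39 of the white adipocytes. Igfals was higher by 1.94 (adjusted p = 0.0456), a call lost when any 1 of the 6 arrays was left out. Among 26 collagens and lysyl oxidases 3 were higher (11.5%) and 2 lower (7.69%), too near those shares to describe the family. Lox, which crosslinks collagen, was at 5.70, 6.02 and 5.68 against 3.75, 3.98 and 3.72 (3.95-fold higher, adjusted p = 0.00221). The higher members were 1 without RG 2, RG 3, RG 4 or BAT 4 and 10 in a fit of the 6 RG and BAT arrays alone.

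Transcripts of other cells were present in both groups at unequal levels, and their part in the differences above was not tested. Stromal and preadipocyte markers had a mean level of 5.74 to 6.57 in RG and 5.17 to 5.55 in BAT, without overlap, and a median difference of 0.93. Of 18 genes 2 were called, both higher (11.1% against 5.85% of all probe sets). They were Dpt (2.53-fold higher, adjusted p = 0.000374) and Col3a1 (2.59-fold higher, adjusted p = 0.038, lost when any array other than BAT 3 was left out). Fitted to the 6 RG and BAT arrays alone, 8 of the 18 were called higher. Pdgfra, the defining receptor of these cells, was at 5.04, 6.14 and 5.42 in RG and 4.63, 4.37 and 3.77 in BAT (adjusted p = 0.131). Endothelial markers had a mean level of 4.96 to 6.20 in RG and 5.62 to 6.55 in BAT, and a median difference of −0.78. Of 20, 1 was called lower (5% against 8.42% of all probe sets), Kdr, by 1.74 (adjusted p = 0.0451). A mean level of at least 5, where 2.93% of probe sets were lower, was reached by 15 of the 20. The call of Kdr was lost without RG 2, RG 3, BAT 3 or BAT 4, while in the same fit of 6 arrays 4 endothelial markers were lower. Macrophage markers had 4.68 to 5.77 in RG and 4.74 to 5.11 in BAT, and a median of 0.37. Of 21, 2 were called higher (9.52% against 5.85% of all probe sets). These were Cd163 and Siglec1, higher by 0.60 and 1.22, both lost when any 1 of the 6 arrays was left out. Adgre1, the defining macrophage marker, was at 4.15, 4.92 and 3.53 against 4.00, 4.64 and 4.03. Macrophage and stromal levels lay below those of the WAT arrays, which ranged from 7.12 to 8.34 and from 6.81 to 8.41. Skeletal muscle markers had 3 of 20 lower in RG, Myh2, Myh7 and Actn3, all near the floor in both groups, and 1 of 20 without RG 3, RG 4, BAT 1 or BAT 4.

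Lymphocyte markers had 1 of 17 called higher (5.88% against 5.85% of all probe sets), Cd79b, near the floor in BAT and not called when any 1 array was left out. No marker of pericytes (13 genes), mammary epithelium (17) or red cells (6) was called, where 14.3% of all probe sets were. Immediate early and dissociation genes, which respond to tissue handling, had 6 of 18 higher in RG (33.3% against 5.85% of all probe sets) and 1 lower (5.56% against 8.42%). All 18 had a mean level of at least 5, where 13.2% of probe sets were higher and 2.93% lower. Egr2 was at 9.80, 9.76 and 9.30 in RG and 8.06, 8.16 and 8.69 in BAT (2.49-fold higher, adjusted p = 0.00279), and Btg2, Jun, Zfp36, Socs3 and Ier2 were higher by 1.15, 0.72, 0.62, 0.84 and 0.56. Hspa1a, a heat shock protein gene, was the lower one, at 8.26, 8.82 and 7.19 against 9.20, 9.49 and 10.35 (adjusted p = 0.04). Leaving out an array gave 2 higher without RG 3 or BAT 1 and 3 without RG 2 or BAT 3, and Hspa1a was lost without RG 2, RG 4, BAT 3 or BAT 4. Of 5 sex-linked genes the Y-linked Eif2s3y was at 5.13, 5.67 and 5.51 in RG and 3.87, 4.51 and 3.74 in BAT (2.63-fold higher, adjusted p = 0.0119). Xist, expressed from the inactive X, was at 3.68, 1.98 and 3.31 against 1.89, 1.77 and 3.13, near the floor in both groups. The part of handling or of the sex of the animals in the differences was not tested.

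**Figure D5:**
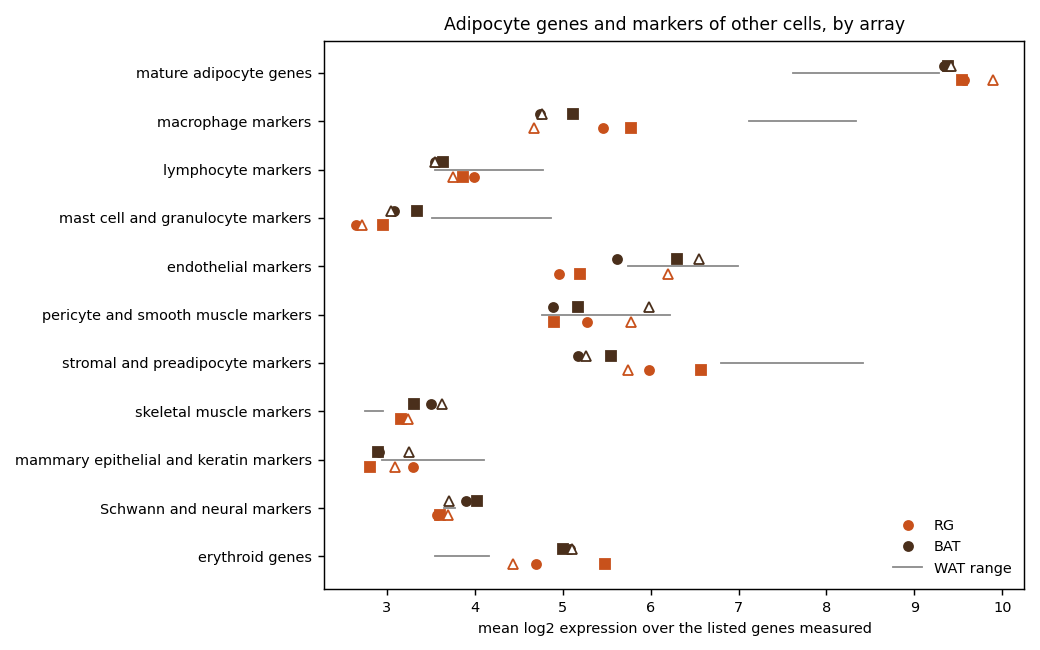
Mean log2 level (horizontal axis) of adipocyte genes and of 10 marker lists of other cells, 1 point per RG or BAT array (circle, square and open triangle as in the plot of thermogenic genes), with a grey line for the range of WAT. RG lies above BAT without overlap in adipocyte genes and in lymphocyte and stromal markers, and below it in mast cell, skeletal muscle and Schwann markers, and macrophage and stromal markers lie below the WAT range in all 6 arrays.

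CL adipocytes came from the same depot as RG cells after another drug, and their values stand beside the BAT difference. Both comparisons share the BAT arrays, so the test of the difference is RG against CL, in which 724 probe sets were called (2.87%), 308 higher in RG (1.22%) and 416 lower (1.65%). Of the 24 thermogenic genes 7 were lower in RG than in CL and none higher, with a median of −0.68, while the median of CL minus BAT was −0.52. Ucp1 averaged 10.41 in CL, above RG by 2.24 (adjusted p = 0.0307) and differing from BAT by −0.46 (adjusted p = 0.67, in a comparison with 2.05% of probe sets called). Elovl3 averaged 8.91 in CL, and RG was lower than CL by 3.49 (adjusted p = 0.00145). From the 2 RS arrays RG differed by 0.94 for Ucp1 (adjusted p = 0.39) and by 0.23 for Elovl3 (0.819). Among positional genes Hoxc8 averaged 6.47 in CL, with a difference RG minus CL of 0.66 (adjusted p = 0.299), and Hoxc10 averaged 5.08, with a difference of −0.09 (adjusted p = 0.802). Kng2 averaged 2.84 in CL and 2.28 in WAT, and no inguinal array was above 2.95, whereas the lowest BAT array was at 5.54.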

How the data were processed

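Sorted cells were measured on Affymetrix mouse arrays. The deposited log2 values were made by the authors with RMA, with affy 1.36.1 and Affymetrix Expression Console named in the submitters' processing notes. The probe set definition is not given in the sources used here. RMA fits background and quantile normalization across arrays, which can compress low levels. No scanner intensities were used, so precision rests on the number of arrays. Probe sets were named through the platform annotation (23185 with 1 symbol, 2021 without). A limma 3.58.1 model (R 4.3.3) with a mean for each of 5 groups was fitted to 15 arrays, and p-values were adjusted (Benjamini-Hochberg) over 25206 probe sets at a threshold of 0.05. The script was tested on simulated data. Other roscovitine samples were not analysed here.

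The members and lists were chosen with earlier results of these data known, and 8 of the lists after values were seen. Named genes were the 12 largest differences in each direction past the threshold without overlap, leaving out predicted genes, chemosensory receptors, small RNAs and antigen receptor segments. They also included up to 4 called members with the smallest p per direction in each list, any member of lists of at most 20 measured genes, and a fixed set of identity genes (of which Gk and Adrb3 were not measured under a symbol). Adgre1 is named outside this rule, as a defining marker. Alternatives were another normalization, filters, weights, fewer arrays and a replicate block. Equal replicate numbers were not taken as pairs. Promoters are RefSeq windows on GRCm38.p6.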

Additional observations from a re-analysis of the deposited data

Results flagged for a closer look

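Among the 24 named genes, 12 differed between the rosiglitazone and CL cells in the test of that difference itself, with both groups set against the same BAT arrays (limma, Benjamini-Hochberg adjusted), where 2.87% of all probe sets were called. The 24 had been chosen for their RG values, which this test shares, so their number is no measure of how often RG and CL differ. Of those lower than in BAT, RG was below CL by a log2 difference of −1.98 for Acsl5 (adjusted p = 0.000371), −3.49 for Elovl3 (0.00145), −2.17 for Phospho1 (0.00155), −2.0 for Acot11 (0.00274), −2.19 for Slc27a2 (0.0124), −1.87 for Ppp1r3b (0.0128), −1.78 for Cox7a1 (0.0161) and −2.24 for Ucp1 (0.0307). CL itself differed from BAT by −0.20 for Elovl3 and by −1.36 for Acsl5. Of those higher than in BAT, RG was above CL by 2.07 for Nnat (0.0125), 1.43 for Ccl7 (0.0125), 1.96 for Cers6 (0.0172) and 1.55 for Gbp11 (0.0421). RG minus RS, with 2 RS arrays, was −0.49 for Acsl5 (adjusted p = 0.221), −0.165 for Slc27a2 (0.867) and 0.94 for Nnat (0.215), none past the threshold. Groups of 3 arrays are too small for the test of single outlying samples.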

How the results depend on the processing

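The comparison rests on 3 arrays a group, and 19169 of the probe sets had a mean under 5. Against 3596 calls (1474 higher in RG, 2122 lower), quantile normalization gave 2021 (972 and 1049), of which 1626 were shared. Testing only probe sets with a mean of at least 5 gave 1061 (875 and 186), where fewer were tested. Median centring gave 3399 with 1385 lower. Without WAT 4 and RS 3 there were 4519 calls (1960 and 2559), of which 3567 were shared. Leaving out 1 array gave 1593 to 3077 calls, 651 to 1261 higher and 942 to 1816 lower, fewest without RG 3 (1593), RG 2 (1700) and RG 4 (2014), then BAT 1 (2295). Blocking on the replicate number gave 347 (154 and 193), all among the main calls. The numbers were not taken as pairs, since the labels give no pairing and no batch. Deviations from the group means correlated at −0.19 for RG 3 and BAT 3 and −0.18 for RG 4 and BAT 4. With so few arrays these correlations cannot exclude a batch shared by equal numbers. No direction reversed among the results checked. Of 152 called genes checked, 41 kept their call in each of the 14 settings that tested them and 65 in each but the block, and of the 24 with the largest differences 17 kept it in all. Apol6, Lbp, Ifi47 and Sorcs2 lost it only under the block. The cause of the changes was not tested. In a fit of the 6 RG and BAT arrays alone, the lower members were 2 of 18 in peroxisomal oxidation, 1 of 21 in cAMP signalling and 1 of 74 in the mitochondrial ribosome, and the higher ones were 3 of 18 immediate early genes and 2 of 16 MHC genes.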

Other observations

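Further lists had few members called, mostly near the 5.85% of all probe sets higher and the 8.42% lower in RG, and their counts are no result about the lists. Single genes that kept their call when any 1 of the 6 arrays was left out were Fads1, a desaturase that makes polyunsaturated chains (2.25-fold higher, adjusted p = 0.0069), Xbp1, a factor of the unfolded protein response (higher by 0.84), the mitochondrial carrier gene Slc25a34 (lower by 1.21), and, among 11 Schwann and neural markers, Pmp22 (higher by 0.83) and Dbh (lower by 0.88). The other calls on these lists were each lost without at least 1 array. They were Hsd17b7 of 17 cholesterol synthesis genes, Pdk3 and Dlat of 10 genes around pyruvate dehydrogenase, Atp5o of 10 ATP synthase genes, Mccc2 of 19 genes of branched-chain amino acid breakdown, Slc25a51 of 28 mitochondrial carriers, Prdx1, Gsr, Gpx1 and Txn2 of 22 oxidative stress genes, Asns of 18 genes of the unfolded protein response, Nfil3 and Npas2 of 17 clock genes, Gadd45g of 18 genes that respond to cAMP, Ccne2 of 29 cell cycle genes, Kit of 14 mast cell and granulocyte markers, and S100b. Those of Dlat, Mccc2 and Gpx1 were lost whichever array was left out. Dio2 was the 1 member called of 18 retinoid and thyroid hormone genes.

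The 1354 probe sets of olfactory and vomeronasal receptors, which fat cells are not known to use, had a median difference of −0.34. Of these 1354, 240 were called lower in RG, a larger share than the 8.42% of all probe sets. Only 9 were called higher, a smaller share than the 5.85% of all probe sets. The part of this in other calls near the floor was not tested. After quantile normalization 68 were called lower and 25 higher.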
